A study of Mus musculus with 8 samples.

Results

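TP-16, which the deposited data label BY001, is a compound given by mouth that blocks EP4, a receptor for prostaglandin E2. The comparison is of CT26 tumors treated with TP-16 alone against tumors treated with vehicle. Its members were chosen by the labels of the samples, which give 2 TP-16 arrays and 2 vehicle arrays, 4 of the 8 arrays in all, with every probe that is not a control spot. CT26 is a colon carcinoma line of BALB/c mice, and 500000 cells were injected under the skin of the flank of each mouse, a host with a working immune system. Mice entered treatment at random when tumors measured 100 to 200 mm3 and were treated for 2 weeks. TP-16 was given at 75 mg/kg every day, anti-PD-1 antibody, which blocks an inhibitory receptor of T cells, at 50 µg into the peritoneum 2 times a week, and the combination group received both agents. The paper describes its mice as female and 6 to 10 weeks old, and the labels state neither sex nor age, nor if RNA came from a single tumor or from several. RNA of the whole fresh tumor was measured on mouse arrays with 1 dye.

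Prostaglandin E2 is a lipid made by cyclooxygenases and prostaglandin E synthases. Its receptors EP2 and EP4 raise cyclic AMP, which activates protein kinase A and the transcription factor CREB, and EP4 also acts through PI3K. In tumors this signaling is known to hold back dendritic cells, T cells and NK cells and to favor suppressive myeloid cells.

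Called higher in the TP-16 tumors than in the vehicle tumors were 8 of 12 MHC class II presentation genes, 11 of 18 T-cell markers and 8 of 15 dendritic cell markers. So were 11 of 22 interferon gamma genes and 10 of 21 type I interferon genes, with 0 lower calls in these lists. Granzymes C to G, Hmox1 and 7 of 9 red blood cell and platelet markers were called lower. Of all tested genes, 1.55% were called higher and 5.13% lower. Collagen, fibroblast, cell division and hypoxia genes held no member that passed the test in either direction when scaled to the 75th percentile of each array. Spike-in scaling called 4, 10, 5 and 13 of them higher. In most of the immune lists, vehicle replicate 1 was the array with the lowest values. Many of their calls needed that array, and many needed TP-16 replicate 1. All levels are log2 intensities relative to the 75th percentile of their array, and a call means that limma gave a difference of 2-fold or more and a p, before adjustment, no higher than 0.05. The p printed beside single genes is adjusted over all probes, and no gene of the lists reached 0.05 after adjustment. The p measures the spread between samples alone, which the labels call biological replicates, and the number of arrays limits the precision.

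Each array held 62976 spots. Vehicle replicates 1 and 2 had 53.8% and 59.7% of their probes well above background, and both TP-16 replicates had 55.7%. The vehicle replicates differed more than those of the other groups, with a standard deviation of the difference between replicates of 0.68 across tested probes, while it was 0.53 in the TP-16 group, 0.43 in the anti-PD-1 group and 0.42 in the combination group. In the vehicle group, 11.1% of tested probes lay over 2-fold apart between replicates, and in the TP-16 group 6.4% did. Of 31912 tested probes, 1972 (6.18%) were called in TP-16 against vehicle, and 25.4% of those calls were higher under TP-16. Quantile normalization gave 70.4% higher, as did the authors' log2 values, scaling to spike-in probes gave 96.5%, and leaving out an array gave 15.1% without vehicle replicate 1, 48.2% without vehicle replicate 2, 11.8% without TP-16 replicate 1 and 37.2% without TP-16 replicate 2.

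The balance of higher and lower calls depended on brightness. Among the dimmest 7978 tested probes, 159 were called higher and 1104 lower, and among the brightest 7978, 78 were called higher and 61 lower. Probes for protein-coding transcripts with a curated RefSeq record gave 398 higher and 528 lower calls, while probes for intergenic long noncoding RNA gave 12 higher and 228 lower. The 16674 probes that were not well above background on any of the 8 arrays had median log2 levels of -6.34 and -5.91 under vehicle and -6.86 and -7.14 under TP-16, so the dim end of the scale itself lay lower on the TP-16 arrays. These dim probes also lay lower on both combination arrays, at -6.85 and -7.15, than on the anti-PD-1 arrays, at -6.21 and -6.54. On the slide, vehicle occupied columns 1 and 2 and TP-16 columns 3 and 4, so slide column and TP-16 cannot be told apart. The transcription factor Pou4f1 and the RNA helicase Ddx25, chosen after their values were seen, had values that fell from column 1 to 4 in both lines of the slide, as 433 of the 31912 tested probes did, while 157 rose. Of the 1471 lower calls 108 fell so, and a lower call itself asks for lower values in columns 3 and 4. Pou4f1 measured 4.14 and 3.45 under vehicle, 2.50 and 0.56 under TP-16, 3.66 and 3.0 under anti-PD-1, and 2.44 and 0.72 under the combination, and its call was lost without vehicle replicate 1, vehicle replicate 2 or TP-16 replicate 2.

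The median log2 fold change over all tested probes was -0.12. Scaling to the spike-in probes moved that median to 0.76 and quantile normalization moved it to 0.04. List medians are therefore also given relative to the median of all probes, a difference that scaling by the spike-in probes does not change. With 1 probe per gene, the brightest over all 8 arrays, 1442 of 21595 genes (6.68%) were called, 334 (1.55%) higher and 1108 (5.13%) lower, with a median of -0.15. Spike-in scaling called 4823 of these genes higher and 225 lower, and its counts in the lists are read against that split. No member of the gene lists passed an adjusted p of 0.05 in limma, so the calls in the lists rest on unadjusted p, and the counts of the lists are read against these shares.

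The 11 genes for prostaglandin E2 synthesis, transport and breakdown were all tested and none was called by limma, with 3 at p of 0.05 or below before adjustment, whatever the fold. Their log2 fold changes ran from -0.34 to 0.49, with a median of -0.07 (0.05 relative to all probes, 0.81 under spike-in scaling). Spike-in scaling called 3 of the 11 higher and 0 lower. Ptgs2, the inducible cyclooxygenase, measured 2.71 and 2.21 under vehicle and 2.50 and 2.28 under TP-16. Both TP-16 values lay within the range of the vehicle values. Ptges, the inducible prostaglandin E synthase, measured 5.90 and 5.97 under vehicle and 5.67 and 5.78 under TP-16, a difference of -0.21 (SE 0.12, adjusted p = 0.309). Ptges turned to 0.67 under spike-in scaling.

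Of the 4 receptors, 3 were tested and none was called. Quantile normalization and the authors' values each called 1 higher, and spike-in scaling called 2 higher (median 1.55). Ptger4, which encodes EP4 itself, measured -0.37 and 0.01 under vehicle and 0.78 and 0.19 under TP-16. The TP-16 pair lay above both vehicle arrays, and the difference of 0.67 (SE 0.31, adjusted p = 0.232) missed the threshold. Another Ptger4 probe, well above background on 1 vehicle array and both TP-16 arrays, was called higher at 1.24, and the remaining one was not well above background on any array. Ptger2, which encodes EP2, measured -3.17 and -2.29 under vehicle and -1.91 and -2.04 under TP-16, a difference of 0.76 (adjusted p = 0.211) that became a call at 1.20 without vehicle replicate 2. Ptger1 differed by -0.25 (adjusted p = 0.681), turning positive under quantile and spike-in scaling, and Ptger3 was not well above background on any of the 4 vehicle and TP-16 arrays. In these bulk samples, more or fewer cells of a type and more or less RNA per cell cannot be told apart.

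Of 26 genes that respond early to cyclic AMP and CREB, all tested, 0 were called higher and 1 lower in limma, with 5 at p of 0.05 or below before adjustment, whatever the fold. Their median was 0.08, or 0.20 relative to all probes, and normexp background correction also called 1. Of the 26, 11 were called higher and 0 lower under spike-in scaling, with a median of 0.96. The called gene was Areg, which encodes the growth factor amphiregulin. Areg measured 1.70 and 0.80 under vehicle and -0.11 and 0.27 under TP-16. Both TP-16 arrays lay below both vehicle arrays, and Areg fell by 1.17 (SE 0.37, adjusted p = 0.133). The call was lost without vehicle replicate 1 (-0.72) and without TP-16 replicate 1 (-0.98), under spike-in scaling (-0.29) and with the methods' t-test. The phosphatase gene Dusp1 measured 2.96 and 2.89 under vehicle and 2.91 and 2.78 under TP-16, and the antiproliferative gene Btg2 measured -0.65 and -0.51 under vehicle and 0.00 and -0.15 under TP-16, neither being called.

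The letters of the full cyclic AMP response element, TGACGTCA, searched on both strands, were present in 3 of the 19 promoters of this list that could be matched, those of Areg, Btg2 and Dusp1, and in 1.88% of the 27025 mouse promoters. The sequences are from RefSeq (GRCm38.p6), which gives 250 bases before to 50 bases after the start of each gene, and are shown because the only called gene of the list is among them. Capitals mark the motif, and a match is a description of these letters. Areg lies on the plus strand (chr5:91139522-91139561), Btg2 on the minus strand (chr1:134079298-134079337) and Dusp1 on the minus strand (chr17:26508592-26508631).
Areg: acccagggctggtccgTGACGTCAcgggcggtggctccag
Btg2: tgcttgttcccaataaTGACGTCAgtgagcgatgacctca
Dusp1: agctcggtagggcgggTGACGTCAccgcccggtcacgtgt

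PI3K and AKT genes gave no call among 22 tested in limma, with 6 at p of 0.05 or below before adjustment, whatever the fold, and a median of 0.19. Their log2 fold changes ran from -0.34 to 0.95. Spike-in scaling called 14 of the 22 higher and 0 lower, with a median of 1.07. Akt1, a kinase of the pathway, differed by -0.10 (adjusted p = 0.573), positive under quantile and spike-in scaling.

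Granzymes are serine proteases of cytotoxic T cells and NK cells, and Gzmc, Gzmd, Gzme, Gzmf and Gzmg, closely related genes next to each other on mouse chromosome 14, were lower in the TP-16 tumors. Gzmd measured 1.61 and 2.96 under vehicle and -1.30 and -1.37 under TP-16. The TP-16 pair lay far below both vehicle arrays, and Gzmd fell by 3.62 (SE 0.42, adjusted p = 0.0541 in limma). Gzmg measured 1.95 and 3.67 under vehicle and -0.75 and -1.09 under TP-16, and fell by 3.73 (SE 0.53, adjusted p = 0.0637). Gzmf measured 2.48 and 4.64 under vehicle and -0.11 and -0.19 under TP-16, and fell by 3.71 (SE 0.65, adjusted p = 0.082). For both of these the groups did not overlap, and the higher vehicle value was that of replicate 2. Gzme measured 4.67 and 6.13 under vehicle and 1.90 and 1.95 under TP-16, and fell by 3.47 (SE 0.46, adjusted p = 0.062). Gzmc measured 4.11 and 5.17 under vehicle and 1.95 and 2.23 under TP-16, and fell by 2.55 (SE 0.35, adjusted p = 0.0631). All 5 kept their direction under each scaling tried, spike-in scaling included, and stayed called when any one of the 8 arrays was left out. Without vehicle replicate 2, the higher of the pair, Gzmd fell by 2.95 and Gzmc by 2.02. With the methods' t-test, 3 of the 5 calls remained.

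The same 5 genes were high on the anti-PD-1 arrays, where Gzmd measured 2.63 and 2.77, and the direct test of TP-16 against anti-PD-1 gave -4.03 for Gzmd (adjusted p = 0.14), -4.10 for Gzmg (adjusted p = 0.203), -4.03 for Gzmf (adjusted p = 0.266), -3.78 for Gzme (adjusted p = 0.174) and -2.72 for Gzmc (adjusted p = 0.197). In that contrast 494 of 31912 probes (1.55%) were called, 6 of them (0.0188%) after adjustment, and the granzymes were not among those 6. Gzmb and Prf1 were also called lower than under anti-PD-1. Gzmb, the granzyme best known for killing target cells, measured 2.17 and 3.70 under vehicle and 2.93 and 2.94 under TP-16, so both TP-16 arrays lay between the vehicle arrays. Its difference from anti-PD-1 was -1.20 (adjusted p = 0.568), and its value against vehicle was -0.76 without vehicle replicate 1 and 0.77 without vehicle replicate 2, neither a call. Gzma, a second major granzyme, measured 3.0 and 5.18 under vehicle and 5.13 and 5.15 under TP-16, with -0.04 without vehicle replicate 1 and a higher call without vehicle replicate 2 (2.14) and under spike-in scaling (1.93). Prf1, the pore-forming protein perforin, measured 0.65 and 2.10 under vehicle and 0.94 and 0.61 under TP-16, and differed from anti-PD-1 by -1.18 (adjusted p = 0.554). Prf1 was called lower against vehicle only in the fit without vehicle replicate 1 (-1.32), and its difference of -0.60 turned positive under spike-in scaling.

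**Figure D1:**
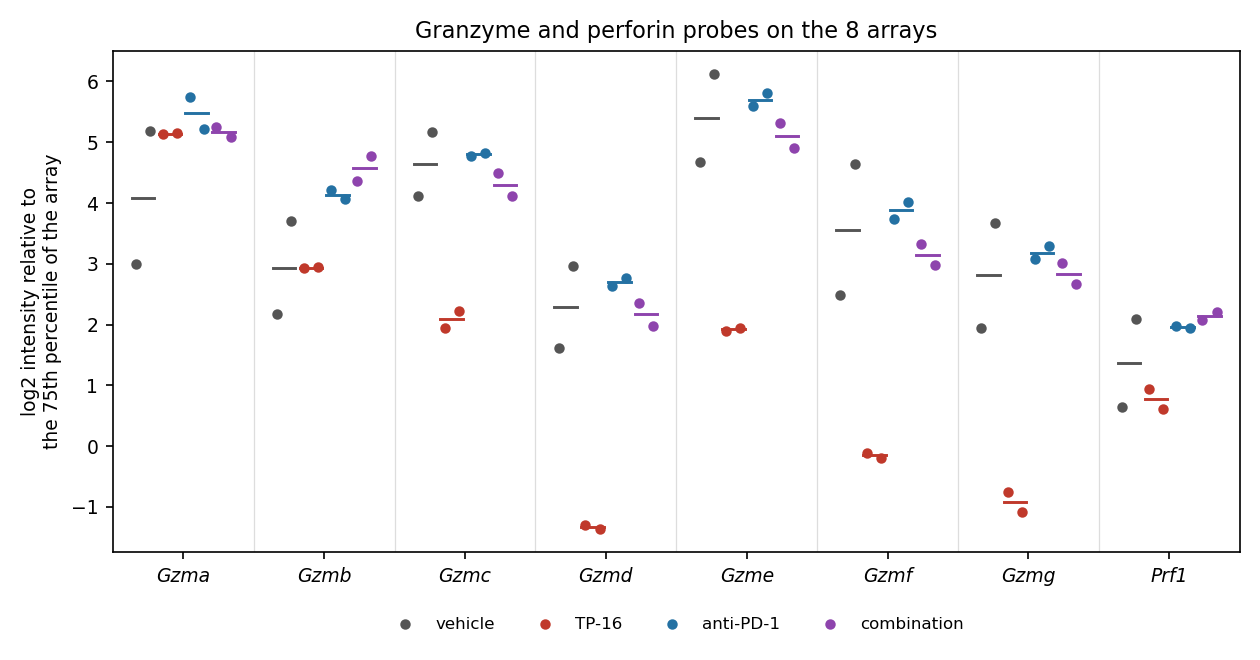
Levels of 7 granzyme probes and perforin on the 8 arrays, as log2 intensity relative to the 75th percentile of the array, with points for arrays and bars for group means. For Gzmc to Gzmg both TP-16 points lie below all 6 others under this scaling, and the fall against vehicle also held under quantile, spike-in and normexp values, while Gzma and Gzmb on TP-16 arrays lie within the range of the vehicle pair.

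Over the whole list of 20 cytotoxic T-cell and NK-cell genes, all tested, 6 were called higher and 5 lower, with a median of 1.07 (1.19 relative to all probes). The median was 0.04 without vehicle replicate 1 and 0.34 after normexp correction. The 5 lower calls were granzymes C to G. The higher calls were Ifng, Tbx21, Nkg7, Fasl, Klrc1 and Klrb1c, of which Klrc1 was not well above background under vehicle and reversed after normexp correction. Ifng, which encodes interferon gamma, measured -3.58 and -0.49 under vehicle and 0.75 and 0.00 under TP-16, and rose by 2.41 (SE 0.96, adjusted p = 0.188). Both TP-16 arrays lay above both vehicle arrays, and vehicle replicate 1 lay farthest from them. Without vehicle replicate 1 the Ifng value was 0.87 and the call was lost, as it was without TP-16 replicate 1 (2.04) and without TP-16 replicate 2 (2.79). Tbx21, a transcription factor of type 1 immunity, rose by 1.91, and Fasl, a death ligand of cytotoxic cells, by 1.55, with values of 0.87 and 0.64 and no call without vehicle replicate 1. None of the 6 higher calls remained without vehicle replicate 1, TP-16 replicate 1 or TP-16 replicate 2, and 1 higher call was left with the replicate number as a block. The summed level of the list, on the linear scale, was 72.3 and 219 under vehicle and 78.3 and 72.5 under TP-16, with Gzma as its brightest gene. Against anti-PD-1 directly, 7 of the 20 were called lower and 0 higher.

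Of 18 T-cell markers, all tested, 11 were called higher under TP-16 and 0 lower, with a median of 1.88 (2.00 relative to all probes). Cd6, a surface receptor of T cells, measured -1.82 and -0.57 under vehicle and 1.41 and 0.56 under TP-16, and rose by 2.18 (SE 0.52, adjusted p = 0.0946). Cd5, a receptor that dampens antigen signals, was chosen after its values were seen. It measured -2.74 and -1.64 under vehicle and 0.24 and -0.61 under TP-16, and rose by 2.00 (SE 0.50, adjusted p = 0.0988). The groups did not overlap for either gene, and both stayed called without any one array. Cd8a, a coreceptor of cytotoxic T cells, was well above background on 1 of 2 vehicle arrays and measured -5.02 and -1.43 under vehicle and 0.12 and -0.74 under TP-16, with a fold change of 2.92 (adjusted p = 0.174) that was 1.12 and not called without vehicle replicate 1, nor called without either TP-16 replicate. Cd27, a costimulatory receptor, was not well above background on either vehicle array and was at least 2.50-fold higher under TP-16 (adjusted p = 0.124), a call lost without TP-16 replicate 1, with the methods' t-test and after normexp correction, where the value was 0.46 in place of 2.45. Its fitted value was 1.38 without vehicle replicate 1. Such a bound sets the mean of the measured group against the lowest level that counts as well above background on each dim array, or the probe's own level where that is higher. Zap70, a kinase of the T-cell receptor, rose by 2.07, which became 0.76 and no call without vehicle replicate 1, and was not called without either TP-16 replicate. Cd3e, a chain of the T-cell receptor complex chosen after its values were seen, measured 0.15 and 1.36 under vehicle and 2.08 and 1.84 under TP-16, and a dimmer second probe differed by 0.52 and was not called. Cd4, the coreceptor of helper T cells, also chosen after its values were seen, measured -0.16 and 0.04 under vehicle and -0.06 and 0.00 under TP-16, with overlapping groups.

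The summed level of the T-cell markers was 23.3 and 43.3 under vehicle and 57.7 and 47.6 under TP-16, and its brightest gene was Thy1, which fibroblasts also express. Of the 11 calls, 3 remained without vehicle replicate 1 (median 0.66), 11 without vehicle replicate 2 (median 2.53), 2 without TP-16 replicate 1 (median 1.55) and 4 without TP-16 replicate 2 (median 2.09). Vehicle replicate 2 lay nearer to the TP-16 mean than to vehicle replicate 1 for 15 of the 18 genes. Against anti-PD-1 directly, 0 of the 18 were called in limma, with a median difference of 0.11.

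Of 18 T-cell activation and inhibitory receptors, all tested, 5 were called higher and 0 lower, with a median of 0.69 (0.81 relative to all probes). The median was 0.51 without vehicle replicate 1 and 1.28 without vehicle replicate 2. Spike-in scaling called 14 of the 18 higher and 0 lower (median 1.57). Btla, an inhibitory receptor of lymphocytes, was well above background on 1 of 2 vehicle arrays and measured -4.14 and -3.05 under vehicle and -0.94 and -0.92 under TP-16. The groups stood well apart, and Btla rose by 2.66 (SE 0.44, adjusted p = 0.0791) and stayed called without any one array, with 2.12 the lowest value. Pdcd1, which encodes PD-1, measured -0.79 and 0.90 under vehicle and 1.77 and 1.5 under TP-16, and rose by 1.58 (adjusted p = 0.154). Without vehicle replicate 1 Pdcd1 was at 0.74 and not called, and its call was also lost without TP-16 replicate 1 (1.45) or TP-16 replicate 2 (1.72). Both ligands of PD-1 rose. Cd274, which encodes PD-L1, measured 0.54 and 1.77 under vehicle and 2.70 and 2.21 under TP-16, and rose by 1.30 (adjusted p = 0.141), a call lost without vehicle replicate 1 (0.69) or TP-16 replicate 1 (1.06). Pdcd1lg2, which encodes PD-L2, measured -1.87 and -1.56 under vehicle and -0.53 and -0.29 under TP-16, and rose by 1.30 (adjusted p = 0.0967) and stayed called without any one array, with 0.92 and no call after normexp correction. Il2ra, a chain of the interleukin 2 receptor, differed by 0.35 (adjusted p = 0.615), while a second and dimmer Il2ra probe, above background on 1 array of each group, was called lower at -1.56. Cd69, an early activation marker, differed by 0.51 (adjusted p = 0.362), and Lamp1, a lysosomal membrane protein, by -0.17 (adjusted p = 0.385), positive under quantile and spike-in scaling.

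Among 12 regulatory T-cell genes, all tested, 1 was called higher and 0 lower, with a median of 0.38. The called gene was Tnfrsf18, a costimulatory receptor, which measured -1.16 and 0.24 under vehicle and 0.67 and 0.95 under TP-16 and rose by 1.26 (adjusted p = 0.152), a value of 0.57 and no call without vehicle replicate 1, nor a call without either TP-16 replicate. Foxp3, the transcription factor that defines these cells and was chosen after its values were seen, measured -2.40 and -1.85 under vehicle and -3.04 and -2.60 under TP-16. The TP-16 pair lay below both vehicle arrays, and the difference of -0.70 (adjusted p = 0.17) did not reach the fold of 2 and was 0.18 under spike-in scaling.

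The interferon gamma list held the most even shift. All 22 genes that could be tested had both TP-16 arrays above both vehicle arrays. In all 22, vehicle replicate 2 lay nearer to the TP-16 mean than to vehicle replicate 1. Of the 22, 11 were called higher and 0 lower, with a median of 1.60 (1.72 relative to all probes). Ciita, the master regulator of MHC class II, measured -2.45 and 0.41 under vehicle and 2.54 and 1.60 under TP-16. The groups did not overlap, and Ciita rose by 3.09 (SE 0.91, adjusted p = 0.119), with 1.66 without vehicle replicate 1 and no call without TP-16 replicate 1 (2.62). Of its dimmer tested probes, the one at 2.79 was called and the one at 0.69 was not. The first was well above background on 1 of 2 vehicle arrays and the second on neither. Both values therefore rest partly on levels near background and are not exact. Ido1, an enzyme that breaks down tryptophan, measured -3.63 and -0.19 under vehicle and 0.97 and 0.67 under TP-16, and rose by 2.73 (adjusted p = 0.172), with 1.01 without vehicle replicate 1. Ido1 was not called without TP-16 replicate 1 (2.58) or TP-16 replicate 2 (2.88).

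The guanylate-binding GTPases Gbp6 and Gbp7, which act against microbes inside cells, rose by 2.23 and 1.94. Without vehicle replicate 1 those values were 0.84 for Gbp6 and 0.99 for Gbp7, and neither was called, nor was either called without TP-16 replicate 1, and Gbp6 was not called without TP-16 replicate 2. Cxcl9, a chemokine that draws T cells, measured 0.89 and 4.11 under vehicle and 4.87 and 4.56 under TP-16, and its difference of 2.22 (adjusted p = 0.209) missed the threshold. It was 0.61 without vehicle replicate 1, and it was called without vehicle replicate 2 (3.82), with normexp (2.23), under spike-in scaling (3.10) and among probes above background on all 8 arrays. Of the 11 calls, 2 remained without vehicle replicate 1 (median 0.59), 11 without vehicle replicate 2 (median 2.64), 0 without TP-16 replicate 1 (median 1.29) and 5 without TP-16 replicate 2 (median 1.83). The summed level of the list was 104 and 389 under vehicle and 586 and 480 under TP-16, and Psmb9, a subunit of the immunoproteasome, was its brightest gene.

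MHC class II presentation gave the highest share of calls among the immune lists: 8 of 12 genes were called higher and 0 lower, with a median of 2.39 (2.51 relative to all probes). The methods' t-test called 0 of these 12 genes, where limma called 8, and also 0 of the 18 T-cell markers and 0 of the 22 tested interferon gamma genes, where limma called 11 of each. H2-Aa, a class II chain, measured -2.76 and -0.02 under vehicle and 1.84 and 1.33 under TP-16, and rose by 2.97 (SE 0.85, adjusted p = 0.116). Cd74, the invariant chain, measured 2.58 and 5.17 under vehicle and 6.75 and 6.48 under TP-16, and rose by 2.74 (SE 0.78, adjusted p = 0.115). Both TP-16 arrays lay above both vehicle arrays for these genes, and vehicle replicate 1 was the low one. Without vehicle replicate 1 the values were 1.60 for H2-Aa and 1.44 for Cd74, both still called, and neither was called without TP-16 replicate 1 (2.72 and 2.60). H2-Eb1, another class II chain, rose by 2.49 and was at 1.04 without vehicle replicate 1, and it was not called without TP-16 replicate 1 (2.26) or TP-16 replicate 2 (2.72). H2-Ea-ps, a class II gene whose reference symbol marks it as a pseudogene, rose by 2.94 and was at 1.62 without vehicle replicate 1, with no call without TP-16 replicate 1. Of the 8 calls, 5 remained without vehicle replicate 1 (median 0.92), 8 without vehicle replicate 2 (median 3.78), 0 without TP-16 replicate 1 (median 2.25) and 3 without TP-16 replicate 2 (median 2.48). The summed level was 135 and 402 under vehicle and 736 and 625 under TP-16, with the protease gene Ctss as its brightest gene.

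**Figure D2:**
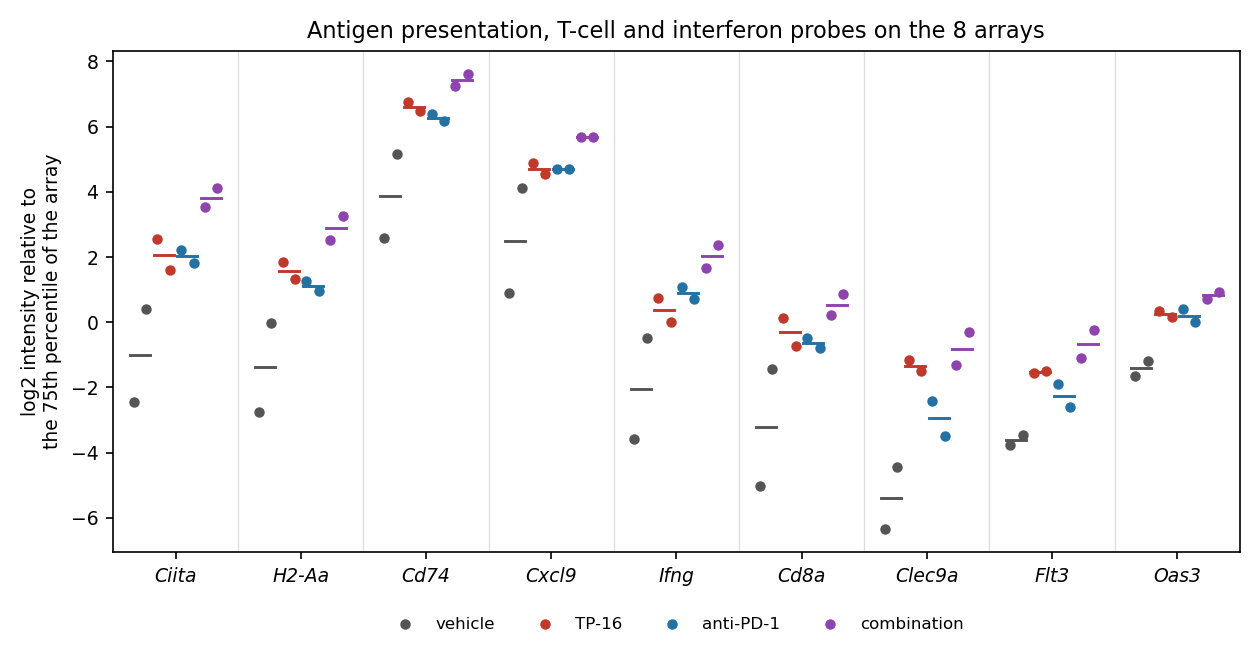
Levels of 9 probes for antigen presentation, T-cell, dendritic cell and interferon genes on the 8 arrays, as log2 intensity relative to the 75th percentile of the array, with points for arrays and bars for group means. Both TP-16 points lie above both vehicle points for each gene, as they do in fold change under each scaling tried, and the lower vehicle point is replicate 1, which for Clec9a is not well above background, like replicate 2.

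The Y box of class II promoters, spelled CTGATTGG and searched on both strands, was present in 3 of the 9 promoters of the class II list that could be matched, and in 4.31% of all promoters. All 3 belonged to genes called higher, and they are shown because these genes moved together. H2-Aa is on the minus strand (chr17:34287851-34287890), H2-Eb1 on the plus strand (chr17:34305789-34305828) and H2-Oa, chosen after its values were seen, on the plus strand (chr17:34092317-34092356). Capitals mark the motif.
H2-Aa: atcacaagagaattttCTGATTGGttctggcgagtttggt
H2-Eb1: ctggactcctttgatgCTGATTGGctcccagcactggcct
H2-Oa: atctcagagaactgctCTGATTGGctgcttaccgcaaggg

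The gamma-activated sequence TTCNNNGAA, searched on both strands, was present in 8 of the 17 matched promoters of the interferon gamma list and in 8.47% of all promoters. Igtp and Irgm2, neighboring GTPase genes on chromosome 11 chosen after their values were seen, hold nearly the same stretch and are shown for that reason. Igtp measured 2.95 and 5.15 under vehicle and 5.89 and 5.60 under TP-16, and Irgm2 measured 1.4 and 3.32 under vehicle and 4.13 and 3.64 under TP-16. For both genes vehicle replicate 1 was the low array, and without it the fold changes of 1.70 and 1.52 became 0.60 and 0.56, and neither was called without any one of vehicle replicate 1, TP-16 replicate 1 and TP-16 replicate 2. Igtp (chr11:58199495-58199535) and Irgm2 (chr11:58214886-58214926) are on the plus strand, and capitals mark the motif.
Igtp: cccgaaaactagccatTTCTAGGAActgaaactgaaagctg
Irgm2: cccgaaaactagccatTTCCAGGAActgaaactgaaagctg

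Of 21 genes induced by type I interferon, all tested, 10 were called higher and 0 lower, with a median of 1.00 (1.12 relative to all probes), and 18 had p of 0.05 or below before adjustment, whatever the fold. Oas3, an enzyme that senses double-stranded RNA, measured -1.65 and -1.18 under vehicle and 0.33 and 0.15 under TP-16, and rose by 1.66 (SE 0.22, adjusted p = 0.0618). Oasl2, a related gene, measured 2.33 and 2.92 under vehicle and 4.27 and 4.10 under TP-16, and rose by 1.56 (SE 0.26, adjusted p = 0.079). The groups of both genes stood apart by more than the spread within either group. Mx1, a GTPase that blocks virus replication, rose by 1.27 (adjusted p = 0.0901) and Oas2 by 1.24 (adjusted p = 0.0926), and all 4 of these genes stayed called without any one array. Of the 10 calls, 5 remained without vehicle replicate 1 (median 0.75), 10 without vehicle replicate 2 and without TP-16 replicate 1, and 8 without TP-16 replicate 2. The 5 lost without vehicle replicate 1 lay just under the fold of 2, such as Irf7, a transcription factor of the response, at 0.80 in place of 1.11. The summed level was 273 and 371 under vehicle and 436 and 458 under TP-16.

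The core of the interferon-stimulated response element, GAAA, any 2 bases and GAAA, searched on both strands, was present in 8 of the 16 matched promoters of the type I list and in 3.49% of all promoters. The windows of Oas3 (minus strand, chr5:120777709-120777750) and of Ifit3, an antiviral gene chosen after its values were seen (plus strand, chr19:34583357-34583398), are shown as called members. Capitals mark the motif, which in Ifit3 reads in the reverse direction and is 1 of 2 matches. Ifit3 measured 1.51 and 1.90 under vehicle and 2.76 and 3.10 under TP-16.
Oas3: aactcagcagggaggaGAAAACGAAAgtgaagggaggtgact
Ifit3: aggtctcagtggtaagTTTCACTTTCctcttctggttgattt

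MHC class I presentation had 1 of 15 tested genes called higher and 0 lower, with a median of 0.46, which was 0.07 without vehicle replicate 1. The called gene was Tapbp, which helps load peptides, at 4.38 and 5.71 under vehicle and 6.16 and 6.06 under TP-16. Its rise of 1.06 (adjusted p = 0.177) was 0.39 and not called without vehicle replicate 1, nor called without either TP-16 replicate.

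Dendritic cell markers gave 8 of 15 tested genes called higher and 0 lower, with a median of 1.06 (1.18 relative to all probes). Of the 8 calls, 3 remained after normexp correction. Clec9a, a receptor for dead cells on cross-presenting dendritic cells, was by its brightest probe not well above background on either vehicle array and measured -1.15 and -1.51 under TP-16. It was at least 6.14-fold higher under TP-16 (adjusted p = 0.0834). A second Clec9a probe, above background on 1 vehicle array at -3.62, was also called higher, at 2.87. On vehicle replicate 1 that probe, at -6.4, was not well above background, so 2.87 is not an exact difference. Flt3, the receptor for the growth factor of these cells, measured -3.78 and -3.47 under vehicle and -1.56 and -1.49 under TP-16, and rose by 2.10 (SE 0.35, adjusted p = 0.079). Wdfy4, needed for cross-presentation, measured 0.80 and 1.5 under vehicle and 2.75 and 2.38 under TP-16, and rose by 1.42 (adjusted p = 0.0933). Itgae, also called higher, measured -2.28 and -1.83 under vehicle and -1.16 and -0.45 under TP-16, and rose by 1.25 (SE 0.36). Ccr7, the receptor that guides dendritic cells to lymph nodes, was chosen after its values were seen. It measured -0.22 and -0.14 under vehicle and 1.04 and 1.05 under TP-16, and rose by 1.23 (adjusted p = 0.0834). For Flt3, Wdfy4 and Ccr7 the groups did not overlap, and these calls and that of Clec9a stayed without any one array. After normexp correction Flt3 was at 0.93 and lost its call. Xcr1, the chemokine receptor that marks the same cells and was chosen after its values were seen, was not well above background on either vehicle array and measured -3.58 and -4.78 under TP-16, with adjusted p = 0.499. Against anti-PD-1 directly, Wdfy4 differed by 0.83 (adjusted p = 0.569) and Clec9a had adjusted p = 0.597. The summed level of the list, 106 and 103 under vehicle and 105 and 96.5 under TP-16, was carried by its brightest gene Bst2, which interferon also induces. Of the 8 calls, 5 remained without vehicle replicate 1, 8 without vehicle replicate 2, 6 without TP-16 replicate 1 and 7 without TP-16 replicate 2.

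T-cell and NK-cell chemokines and their receptors gave 7 of 16 tested genes called higher and 0 lower, with a median of 0.98 (1.1 relative to all probes), and 0.55 without vehicle replicate 1. Ccl5, which draws T cells and monocytes, measured 1.78 and 2.50 under vehicle and 4.76 and 3.99 under TP-16. All TP-16 values lay above all vehicle values, and Ccl5 rose by 2.23 (SE 0.38, adjusted p = 0.0812). Xcl1, the ligand of Xcr1 made by NK cells and T cells, measured -2.37 and -1.47 under vehicle and 0.01 and -0.06 under TP-16, and rose by 1.89 (adjusted p = 0.0815). Cxcr3, the receptor for Cxcl9 and Cxcl10, was chosen after its values were seen. It measured -2.49 and -2.18 under vehicle and -0.23 and -0.65 under TP-16, and rose by 1.89 (adjusted p = 0.0826). Ccl5, Xcl1 and Cxcr3 stayed called without any one array. Cxcr6, a receptor of resident T cells, rose by 2.33 (adjusted p = 0.151) and was at 1.13 without vehicle replicate 1, where it was not called, as it was not without TP-16 replicate 1. Cxcl13, which draws B cells, rose by 2.19 (adjusted p = 0.138) and was at 1.24 and not called without vehicle replicate 1, nor called without either TP-16 replicate. Cxcl10 measured 2.92 and 3.85 under vehicle and 4.75 and 4.19 under TP-16, and rose by 1.08 (adjusted p = 0.132), a call lost without vehicle replicate 1 (0.62) or TP-16 replicate 1 (0.80), and a dimmer second probe was at 0.22 and not called. Of the 7 calls, 4 remained without vehicle replicate 1, 7 without vehicle replicate 2, 4 without TP-16 replicate 1 and 6 without TP-16 replicate 2.

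Macrophage markers gave no call among 17 tested genes in limma, with 1 at p of 0.05 or below before adjustment, whatever the fold, and a median of 0.25. That median was 0.05 without vehicle replicate 1 and 0.53 without vehicle replicate 2. Spike-in scaling called 12 of the 17 higher and 0 lower (median 1.13). Adgre1, which encodes the macrophage antigen F4/80, measured 2.50 and 3.0 under vehicle and 3.90 and 3.33 under TP-16. The TP-16 pair lay above both vehicle arrays, and the difference of 0.87 (adjusted p = 0.204) missed the threshold, becoming a call at 1.15 without TP-16 replicate 2. Itgam, which encodes CD11b of myeloid cells, measured 4.97 and 2.53 under vehicle and 3.39 and 2.26 under TP-16, with overlapping groups. The summed level was 786 and 993 under vehicle and 871 and 839 under TP-16, with the lysozyme gene Lyz2 as the brightest.

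Genes of inflammatory macrophages, the M1 type, gave 2 of 16 tested genes called higher and 0 lower, with a median of 0.45, and the called genes were Ccl5 and Cxcl10. The median was 0.14 without vehicle replicate 1 and 0.80 without vehicle replicate 2. Spike-in scaling called 11 of the 16 higher and 0 lower (median 1.33). Tnf, a central inflammatory cytokine, measured -2.64 and -1.48 under vehicle and -0.95 and -1.76 under TP-16, a difference of 0.70 (adjusted p = 0.4). Il1b, another such cytokine, measured 2.29 and 2.71 under vehicle and 2.94 and 2.92 under TP-16, a difference of 0.42 (adjusted p = 0.173) that did not reach the fold of 2. Ccl2, which draws monocytes, measured 6.10 and 5.96 under vehicle and 6.41 and 6.62 under TP-16, a difference of 0.48 (adjusted p = 0.131), also under the fold of 2.

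Genes of alternatively activated macrophages, the M2 type, gave 2 of 18 tested genes called higher and 0 lower, with a median of 0.14. One was Pdcd1lg2. The other was Retnla, a secreted protein that type 2 cytokines induce, which measured -0.96 and -0.44 under vehicle and 2.53 and 3.38 under TP-16. The groups stood far apart, and Retnla rose by 3.65 (SE 0.35, adjusted p = 0.0506 in limma), with values of 3.23 to 4.08 when any one array of either group was left out. Its levels on the anti-PD-1 arrays were 5.11 and 4.64, and the direct test gave -1.92 for TP-16 minus anti-PD-1 (adjusted p = 0.333). Mrc1, the mannose receptor CD206, measured 4.18 and 3.55 under vehicle and 3.29 and 3.68 under TP-16. Chil3, a chitinase-like protein, measured -1.35 and -0.80 under vehicle and -1.36 and -0.11 under TP-16. In these genes the groups overlapped. Il10, which encodes a suppressive cytokine, was not well above background on either vehicle array and measured -4.30 and -4.22 under TP-16 (adjusted p = 0.249).

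Genes used to describe myeloid-derived suppressor cells gave 5 of 21 tested genes called higher and 0 lower, with a median of 0.17. The called genes were Ido1, Ly6c2, Ly6c1, Cd274 and Cybb, of which the interferon gamma list also holds Ido1 and Cd274. Ly6c2, a surface protein of monocytes and some T cells, measured 4.85 and 6.62 under vehicle and 7.18 and 7.06 under TP-16, and rose by 1.38 (adjusted p = 0.175), a value of 0.50 and no call without vehicle replicate 1, nor a call without either TP-16 replicate. Cybb, a subunit of the oxidase that makes superoxide, measured -0.03 and 0.73 under vehicle and 1.66 and 1.25 under TP-16, and rose by 1.1 (adjusted p = 0.11), with 0.72 and no call without vehicle replicate 1 and 0.89 and no call without TP-16 replicate 1. Il4ra, a receptor chain for type 2 cytokines, differed by 0.12 (adjusted p = 0.763), and Ly6g, which marks granulocytic cells, was not well above background on any of the 4 arrays. Of the 5 calls, 1 remained without vehicle replicate 1, 5 without vehicle replicate 2, 0 without TP-16 replicate 1 and 2 without TP-16 replicate 2.

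Neutrophil markers gave 1 of 17 tested genes called higher and 0 lower, with a median of -0.15, positive at 0.74 under spike-in scaling. The called gene was Lcn2, which binds iron carriers of bacteria, at 1.92 and 2.46 under vehicle and 3.05 and 3.98 under TP-16. Lcn2 rose by 1.33 (adjusted p = 0.129), with no call without vehicle replicate 1 (1.06) or TP-16 replicate 2 (0.86). Neutrophil and monocyte chemokines gave 0 of 17 called higher and 2 lower, with a median of 0.09, negative at -0.20 after normexp correction. The lower genes were Pf4 and Ppbp, which platelets store and release. Cxcl1, which draws neutrophils, measured 2.39 and 2.17 under vehicle and 2.51 and 2.65 under TP-16 (adjusted p = 0.566).

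Markers of mast cells, eosinophils and basophils gave 3 of 14 tested genes called higher and 1 lower, with a median of 0.17. Ear2, an eosinophil ribonuclease, measured -2.64 and -2.61 under vehicle and -0.77 and -0.05 under TP-16, and rose by 2.21 (SE 0.25, adjusted p = 0.0524). Ear1, a close relative, measured -3.90 and -3.50 under vehicle and -2.66 and -2.15 under TP-16, and rose by 1.29 (adjusted p = 0.0933). Both genes separated the groups and stayed called without any one array, but Ear1 was at 0.31 and not called after normexp correction, where 1 higher and 0 lower calls of the list were left. Siglecf, a surface receptor of eosinophils, was not well above background under vehicle and was at least 1.18-fold higher under TP-16 (adjusted p = 0.152), a call lost without vehicle replicate 1 or TP-16 replicate 1. Il5ra, the receptor for the eosinophil cytokine interleukin 5, measured -3.88 and -3.48 under vehicle, was not well above background under TP-16, and was at least 2.08-fold lower under TP-16 (adjusted p = 0.054). The Il5ra call was also lost under quantile normalization, the authors' values and spike-in scaling, each with 0 lower calls in the list. The summed level was 16.1 and 22.6 under vehicle and 21.3 and 25.8 under TP-16, with the mast cell protease gene Mcpt4 as the brightest.

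B-cell and plasma cell markers gave 2 of 13 tested genes called higher and 2 lower, with a median of -0.48, positive at 0.41 under spike-in scaling. That scaling called 3 higher and 0 lower, and quantile, normexp and the authors' values each called 1 lower. Jchain, which joins antibody units in plasma cells, measured -3.26 and -1.61 under vehicle and 0.67 and -0.37 under TP-16, and rose by 2.59 (SE 0.58, adjusted p = 0.0933). Mzb1, a chaperone of plasma cells, was well above background on 1 of 2 vehicle arrays and was called higher at 1.49 (adjusted p = 0.178), and its value was 0.25 with no call after normexp correction, 0.74 with no call without vehicle replicate 1 and 0.93 with no call without TP-16 replicate 1. Ms4a1, which encodes the B-cell antigen CD20, measured -1.18 and -1.22 under vehicle and -2.47 and -2.97 under TP-16, and fell by 1.52 (adjusted p = 0.115), with no call without TP-16 replicate 2 (-1.27), and a dimmer second probe was at -0.65 and not called. Pax5, the factor that keeps B cells on course, was called lower at -1.03 (adjusted p = 0.146), well above background on 1 of 2 TP-16 arrays, and lost its call without vehicle replicate 2 (-0.74), TP-16 replicate 1 or TP-16 replicate 2.

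Hmox1, which encodes the enzyme that degrades heme, was the largest fall outside the granzymes among the genes well above background on all 4 arrays, with groups apart and the same direction after quantile normalization. Hmox1 measured 5.27 and 5.02 under vehicle and 1.11 and 2.74 under TP-16, and 5.74 and 5.47 under anti-PD-1. The TP-16 arrays lay far below all the others, and differed between themselves. The fall of 3.22 (SE 0.51, adjusted p = 0.0744) was 2.40 to 4.03 in size when arrays of either group were left out in turn. The direct test against anti-PD-1 gave -3.68 (adjusted p = 0.23). A second Hmox1 probe was not well above background on any array.

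Other genes also had large falls. Tmsb15a, an actin-binding thymosin, measured -0.95 and 1.52 under vehicle and -2.43 and -2.35 under TP-16, and fell by 2.68 (adjusted p = 0.113), which was 1.44 in size without vehicle replicate 2. Tff1, a secreted trefoil peptide of the gut, measured -2.25 and -0.97 under vehicle and -3.99 and -4.03 under TP-16, and fell by 2.40 (adjusted p = 0.0837). Both genes were also called lower than under anti-PD-1 in the direct test, Tmsb15a at -3.17 (adjusted p = 0.463) and Tff1 at -2.24 (adjusted p = 0.365). Fcrls, a receptor-like gene of some macrophages, fell by 2.57 and was at -1.38 without vehicle replicate 1, and it lost its call without TP-16 replicate 1 or TP-16 replicate 2. Gm5592, the lysozyme-like gene Lyzl4 and the odorant receptor gene Olfr1415 fell by 2.64, 2.51 and 2.34. Among the rises, Gm15056, a beta-defensin gene, measured -3.0 and -1.89 under vehicle and 0.81 and 0.22 under TP-16, and rose by 2.96 (SE 0.41, adjusted p = 0.0631).

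Adjusted over all probes, 17 of 31912 (0.0533%) passed, 1 higher and 16 lower. The split was 91 higher and 49 lower after quantile normalization, 90 and 49 with the authors' values, and 7683 and 229 under spike-in scaling. The higher one was Rab5c, which encodes a GTPase of early endosomes. Rab5c measured 2.96 and 3.16 under vehicle and 4.88 and 5.05 under TP-16. Replicates lay close together and the groups far apart, and Rab5c rose by 1.90 (SE 0.13, adjusted p = 0.0208 in limma), with 1.80 to 2.00 when arrays were left out. The anti-PD-1 arrays measured 3.05 and 3.20 and the combination arrays 3.49 and 3.48, and Rab5c passed the adjusted test of TP-16 against anti-PD-1 at 1.84 (adjusted p = 0.047). With the replicate number as a block Rab5c passed neither adjusted test, and it did not pass the test against anti-PD-1 among probes above background on all 8 arrays, among those above background under vehicle or TP-16, or without either combination array. Of the 16 lower probes, 15 were well above background on both vehicle arrays and on no other array of the 8, with bounds from at least 1.88-fold to at least 12.9-fold. These 15 entered the test through the group in which they were high. Of the 322 tested probes above background on both vehicle arrays and no TP-16 array 310 were called lower, so a lower call said little more than the filter did. Among them was 4930522H14Rik, at -0.72 and -1.37 under vehicle and at least 12.9-fold lower under TP-16. Others were the noncoding transcript Gm5, at least 8.95-fold lower, Ly6g6e, a member of the Ly6 family, at least 6.53-fold lower, Gm36270, at least 3.28-fold lower, and Gm7444, at least 2.24-fold lower. A second Ly6g6e probe, above background on all 4 arrays, measured -1.63 and -2.33 under vehicle and -3.44 and -2.34 under TP-16 and was not called, at -0.91. A further one was a probe for an intergenic RNA on chromosome 15, at least 3.14-fold lower. The remaining lower probe, for the Ensembl transcript ENSMUST00000128900, measured -2.32 and -2.48 under vehicle and -4.65 and -4.43 under TP-16, and was well above background on 1 of the TP-16 arrays. The number of probes past adjusted p moved from 17 to 800 without vehicle replicate 1, to 355 without vehicle replicate 2, and to 0 in limma without either TP-16 replicate, where 2163 (without replicate 1) and 1561 (without replicate 2) passed the unadjusted rule. It was also 0 in limma without any one anti-PD-1 array (1797 unadjusted) or combination array (1803), with no filter (8206) and with only the 2 groups (1566), so Rab5c did not pass adjusted p in any of these. The methods' t-test called 528 probes at their threshold of fold and p and 0 after Benjamini-Hochberg adjustment.

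Red blood cell and platelet markers were lower under TP-16. Of 15 genes, 9 were tested, and 0 were called higher and 7 lower, with a median of -1.21 (-1.09 relative to all probes, and -0.33 under spike-in scaling). Of the 7 calls, 3 remained under spike-in scaling, 5 after quantile normalization, 5 with normexp and 4 with the methods' t-test. Hba-a1, an alpha globin and the brightest gene of the list, measured 8.68 and 8.07 under vehicle and 6.53 and 6.32 under TP-16, and fell by 1.95 (SE 0.23, adjusted p = 0.0562). Hbb-b1, a beta globin, measured 3.95 and 3.32 under vehicle and 1.60 and 1.35 under TP-16, and fell by 2.16 (SE 0.24, adjusted p = 0.052). Alas2, the first enzyme of heme synthesis in red blood cells, measured 1.11 and 0.25 under vehicle and -0.99 and -1.31 under TP-16, and fell by 1.83 (adjusted p = 0.0803), with -0.95 and no call under spike-in scaling. The groups did not overlap for any of these genes, and they stayed called without any one array. The platelet factor Pf4 measured 6.04 and 5.35 under vehicle and 4.43 and 4.65 under TP-16, and fell by 1.16 (adjusted p = 0.0901), with -0.81 and no call without vehicle replicate 1. Ppbp, another platelet factor, fell by 1.21 (adjusted p = 0.109), with -0.68 and no call without vehicle replicate 1. Of the 7 calls, 5 remained without vehicle replicate 1, 7 without vehicle replicate 2 and without TP-16 replicate 1, and 6 without TP-16 replicate 2. The summed level was 602 and 380 under vehicle, 139 and 124 under TP-16 and 198 and 205 under anti-PD-1. Of the defining markers, Rhag and Epb42 were not well above background on any of the 4 arrays. The part of blood content in the other results was not tested.

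Interleukin 6 family and STAT3 genes gave 1 of 19 tested genes called higher and 1 lower, with a median of 0.06. Il6 measured -0.32 and -0.90 under vehicle and -1.52 and -1.67 under TP-16. Both TP-16 arrays lay below both vehicle arrays, and the difference of -0.98 (SE 0.23, adjusted p = 0.0933) lay just short of the fold of 2, passing it without vehicle replicate 2 (-1.28) or TP-16 replicate 1 (-1.05). Il11, a cytokine of the same family, measured 3.31 and 3.24 under vehicle and 1.82 and 2.35 under TP-16, and fell by 1.19 (SE 0.20, adjusted p = 0.0791), with -0.92 and no call without TP-16 replicate 1. Under spike-in scaling 9 genes of the list were called higher and 0 lower (median 0.95), so neither Il6 nor Il11 was called lower there. The direct test of Il11 against anti-PD-1 gave -0.89 (adjusted p = 0.421). Stat3, the transcription factor of the pathway, measured 2.90 and 3.64 under vehicle and 3.99 and 3.85 under TP-16, a difference of 0.66 (adjusted p = 0.181) under the fold of 2. The higher gene of the list was Lcn2.

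Among 12 tested genes of the interleukin 1 family, 1 was called higher and 0 lower, with a median of 0.26. That gene was Il18r1, a chain of the interleukin 18 receptor on T cells and NK cells, at -3.55 and -1.82 under vehicle and -0.45 and -0.83 under TP-16, and it rose by 2.05 (adjusted p = 0.103), with 1.18 and still a call without vehicle replicate 1. Of 15 transforming growth factor beta genes, 1 was called higher and 0 lower, with a median of 0.10. Ltbp2, a matrix protein of the same family as the proteins that bind the latent factor, measured 0.26 and 0.31 under vehicle and 1.49 and 1.29 under TP-16, and rose by 1.11 (adjusted p = 0.0791).

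Fibroblast markers gave no call among 18 tested genes in limma, collagens none among 19, and matrix metalloproteinases and their inhibitors none among 16, with 5, 4 and 3 at p of 0.05 or below before adjustment, whatever the fold. Their medians were 0.14, -0.14 and -0.02, the collagens turning positive under spike-in scaling (0.74) and the metalloproteinases under quantile (0.05), normexp (0.01) and spike-in values (0.86). Spike-in scaling called 10, 4 and 5 genes of these lists higher and 0 lower. Quantile normalization and the authors' values called 1 collagen higher. Col1a2, a chain of type I collagen, measured 7.13 and 7.04 under vehicle and 7.51 and 7.28 under TP-16, a difference of 0.31 (adjusted p = 0.181). Endothelial markers and angiogenic factors gave 1 of 18 called higher and 0 lower, with a median of -0.27, positive at 0.61 under spike-in scaling. The called gene was Angpt1, a ligand that stabilizes vessels, which was not well above background under vehicle and was at least 1.35-fold higher under TP-16 (adjusted p = 0.116), with no call without vehicle replicate 2 or TP-16 replicate 1 and a reversed sign after normexp background correction (-0.03).

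Cell division genes gave no call among 20 tested in limma, with 2 at p of 0.05 or below before adjustment, whatever the fold, and hypoxia and glycolysis genes none among 21, with 5. Their medians were -0.06, positive under quantile, normexp and spike-in values, and 0.17. Spike-in scaling called 5 and 13 genes of these lists higher and 0 lower. Birc5, needed for chromosome segregation, measured 6.69 and 6.75 under vehicle and 6.50 and 6.51 under TP-16. Pgk1, a glycolytic enzyme, measured 9.24 and 9.15 under vehicle and 8.85 and 8.94 under TP-16, a difference of -0.30 (adjusted p = 0.209) that turned positive under quantile and spike-in scaling. Reference genes, 16 tested with 0 called in limma and 4 at p of 0.05 or below before adjustment, whatever the fold, had a median of -0.19, which was 0.18 after quantile normalization and 0.69 under spike-in scaling. The spike-in values called 3 of the 16 higher and 0 lower. Ppia, a common reference gene, measured 9.56 and 9.54 under vehicle and 8.99 and 9.03 under TP-16.

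As a check of the label, epithelial genes of colon carcinoma were listed. Of 17 genes, 11 were tested, and 0 were called higher and 2 lower, with a median of -0.46, positive at 0.42 under spike-in scaling. Vil1, Cdx1 and Cldn3 were not well above background on any of the 4 arrays, Epcam was on 1 vehicle array alone, and Krt8, Krt18 and Krt20 were on all 4. Cldn4, a tight junction protein, measured -1.72 and -3.14 under vehicle and was at least 4.94-fold lower under TP-16, and it entered the test through the vehicle arrays, the only ones of the 8 to measure it. Cdx2, an intestinal transcription factor, measured -2.17 and -1.80 under vehicle and -5.19 and -4.33 under TP-16, where 1 of 2 arrays measured it, and was called lower at -2.78 (adjusted p = 0.0633). The summed level of the list was 77.9 and 86.1 under vehicle and 54.8 and 85.7 under TP-16, with Krt20 as the brightest.

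Lists for tissues around the tumor showed single samples that stood apart. Epidermis and hair follicle markers gave no call among 8 tested genes in limma and 0 at p of 0.05 or below before adjustment. Krt14, a keratin of basal epidermis chosen after its values were seen, measured -4.04 and -0.35 under vehicle, -4.06 and 3.80 under TP-16, and -3.45 and 4.22 under anti-PD-1. Its high values were on TP-16 replicate 2 and anti-PD-1 replicate 2. The summed level of the list was 10.1 and 12.4 under vehicle and 9.18 and 45.3 under TP-16, with Trp63 as the brightest gene over all arrays and Ivl, Krt25 and Krt27 not well above background on any of the 4. Skeletal muscle markers gave 1 of 17 called higher, Myh1, a fast myosin, which rose by 1.14 (adjusted p = 0.155) and was not called without vehicle replicate 1 (0.80) or TP-16 replicate 2 (0.85). Their summed level was 35.7 and 91.6 under vehicle and 82.3 and 81.3 under TP-16, with the actin gene Acta1 as the brightest. The part of skin and muscle in the other results was not tested.

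Adipose tissue markers gave 2 of 13 tested genes called higher and 0 lower, with a median of 0.16, negative at -0.09 after normexp correction. Lpl, the lipase of the vessel wall that macrophages also make, measured -0.67 and -0.21 under vehicle and 1.95 and 0.59 under TP-16, and rose by 1.72 (adjusted p = 0.118), with no call without vehicle replicate 1 (1.48) or TP-16 replicate 1 (1.04). Of 5 dimmer Lpl probes 1 was called higher as well, at 1.83, and the others, at 0.60, -0.63, -1.33 and -2.15, were not called. Car3, a carbonic anhydrase of fat and muscle, rose by 1.26 (adjusted p = 0.119), with no call without vehicle replicate 1 (0.92) or TP-16 replicate 2 (1.14). Exocrine pancreas and digestive enzyme genes gave 0 of 8 tested genes called higher and 2 lower, and 8 of the 17 listed were not well above background on any of the 4 arrays. Cela1, an elastase that tissues other than pancreas also express, measured 2.27 and 1.90 under vehicle and 0.89 and 1.21 under TP-16, and fell by 1.03 (adjusted p = 0.0899), with -0.85 and no call without vehicle replicate 1 and -0.87 and no call without TP-16 replicate 1. Cela1 was at -0.15 under spike-in scaling and -0.94 after normexp correction, and was not called in either. Cela3b, another elastase, was well above background on 1 array of each group and was called lower at -1.1 (adjusted p = 0.166), a call lost in most alternatives, with -0.33 after quantile normalization and -0.22 under spike-in scaling. Nerve and Schwann cell markers gave 1 of 13 tested genes called higher, Nefh, a neurofilament that was not well above background under vehicle (adjusted p = 0.0901), and 0 lower.

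**Figure D3:**
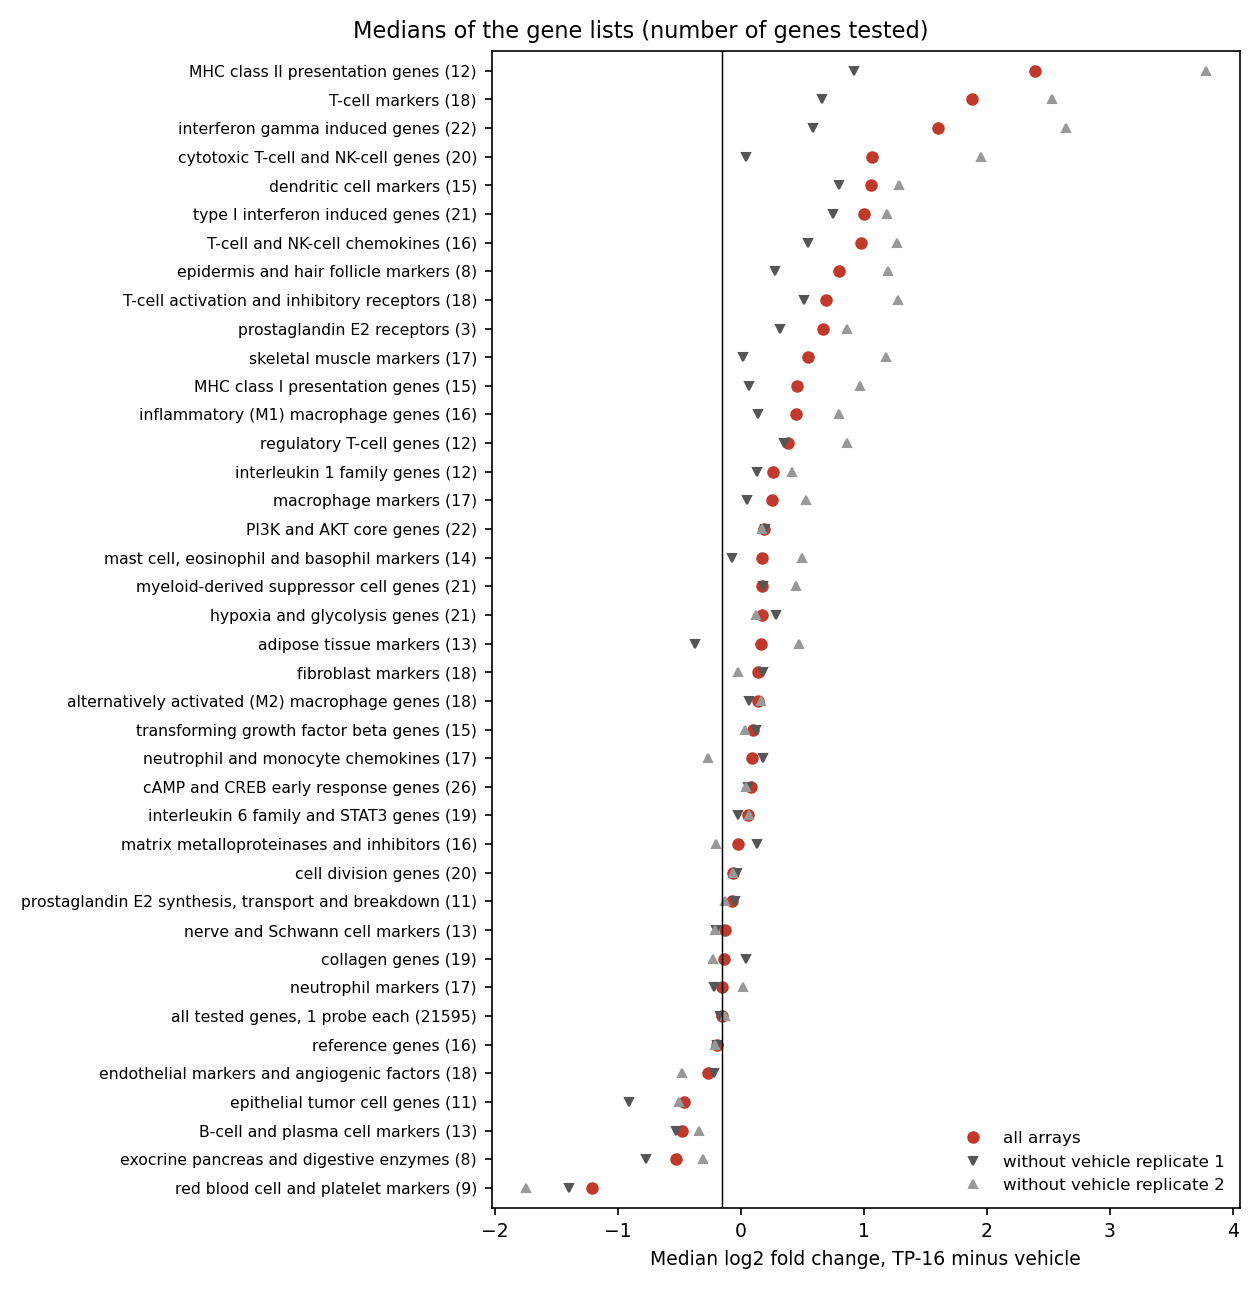
Median log2 fold change of the tested genes of each list, TP-16 minus vehicle, with all arrays (circles) and without either vehicle array (triangles), and a line at the median of all tested genes, -0.15. MHC class II, T-cell and interferon gamma lists lie at 2.39, 1.88 and 1.60, red blood cell and platelet markers lie at -1.21 with all arrays, and values are on the 75th percentile scale, on which the reference genes (-0.19) are negative while spike-in scaling makes them positive.

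Set against anti-PD-1, the other single agent, the immune lists differed unevenly in the direct test. Besides 7 of 20 cytotoxic genes, 3 of 14 genes for mast cells, eosinophils and basophils were called lower under TP-16 (median -0.91), as were 2 M2 genes, 2 neutrophil markers (median -0.48) and 1 suppressor cell gene. Of the dendritic cell markers 1 was called higher, and so was 1 of the activation and inhibitory receptors. In MHC class II, T-cell, interferon gamma, type I interferon and chemokine lists, 0 genes were called in limma in either direction, where 2780 of all tested probes had p of 0.05 or below before adjustment, whatever the fold, and the list medians of TP-16 minus anti-PD-1 were 0.23, 0.11, -0.32, 0.02 and 0.03. Both single agents share the vehicle arrays as their control. The class II list had a median of 2.39 against vehicle in the TP-16 tumors and 1.77 in the anti-PD-1 tumors, the T-cell markers 1.88 and 1.70, and the red blood cell and platelet markers -1.21 and -1.27. In the direct test, the red blood cell and platelet markers had a median of -0.54 for TP-16 minus anti-PD-1, with 0 called in either direction. TP-16 was the lower one in 413 of the 494 called probes, and 16.4% were higher under TP-16. That share was 41.6% after quantile normalization, 41.5% with the authors' values, 91.8% under spike-in scaling, 7.5% with normexp, 8.8% without TP-16 replicate 1 and 38.9% without TP-16 replicate 2. The count rose to 1091 without TP-16 replicate 1.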

How the data were processed

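RNA of 8 CT26 tumor samples was measured on 8 one-colour arrays, and the sample labels gave the groups. The authors deposited, per array, the spot intensity written by Feature Extraction 10.7.1.1, with its other flag columns for background and outliers, and log2 values. Intensities of 56567 probes were averaged over spots, after 38 probes with outlier marks were left out, and scaled to the 75th percentile of each array. Of these, 31912 were well above background on each array of some group and went into limma 3.58.1 (R 4.3.3) with all 8 arrays, 1 mean per group, no block and 4 residual degrees of freedom, and Benjamini-Hochberg adjustment over all tested probes. RefSeq names (GRCm38.p6) were matched for 33866 probes (59.9%), and the others keep the array's name. Of 615 genes in 39 lists, 608 were on the array. The rule named the 34 genes that the paper measured, probes past adjusted p (6 at most as bounds), the 12 largest rises and 12 largest falls with separated groups, and up to 4 called genes of each list or else its 2 brightest. The members and lists were chosen with earlier results of these data known. Alternatives were quantile, median, spike-in and normexp values (offset 50), the authors' values, other filters, a replicate block, other fits, a fold of 1.5, the methods' t-test and fits lacking 1 array. The calculations were tested on simulated data. Other software was the data.table package (version 1.17.8), Python 3.11.15, numpy 2.4.6, pandas 2.3.3 and matplotlib 3.10.9.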

Additional observations from a re-analysis of the deposited data

Results flagged for a closer look

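For 6 probes the adjusted test of the difference between TP-16 and anti-PD-1 passed. Rab5c was 1.84 higher under TP-16 on the log2 scale (adjusted p = 0.047 in limma). The other 5 were lower under TP-16. Of the 8 arrays only the anti-PD-1 pair measured them well above background, so they entered the test through the group in which they were high, and their differences set a measured level against levels near background. Among probes above background under vehicle or TP-16, 0 passed in limma, with 391 called unadjusted. Their fitted log2 differences were -4.49 for Dgki, -4.00 for Smyd4, -3.81 for A230055C15, -3.59 for Htr5a and -2.97 for A830008E24Rik. As bounds they were at least 4.53-fold, 6.52-fold, 2.80-fold, 2.42-fold and 1.87-fold lower than under anti-PD-1.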

How the results depend on the processing

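The 1972 probes called in TP-16 against vehicle became 8164 with spike-in scaling, 725 with normexp, 8206 with no filter on dim probes, 941 with probes above background on all 8 arrays, 528 with the methods' t-test and 4490 at a fold of 1.5, and 1561 to 2838 when 1 array was left out. The share of higher calls, 25.4%, reversed to 70.4% with quantile normalization and with the authors' values and to 96.5% with spike-in scaling, was 6.1% with no filter, and ran from 11.8% to 48.2% when 1 array was left out. Angpt1 reversed to -0.03 with normexp. The cause of these shifts was not tested.

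The 17 probes past adjusted p became 140 with quantile normalization, 7912 with spike-in scaling, 499 with normexp, 139 with the authors' values, 106 with probes above background under vehicle or TP-16, 118 with those above background on all 8 arrays, 84 with 1 probe per gene and 369 with trended and robust moderation. They became 0 in limma with no filter (8206 at unadjusted p), 0 in limma with only the 2 groups (1566 unadjusted) and 0 with the methods' t-test (528 unadjusted), and ran from 0 to 800 when 1 array was left out. The 494 probes of TP-16 against anti-PD-1 became 1438 with spike-in scaling, 213 with normexp, 1532 with no filter, 258 with probes above background on all 8 arrays, 197 with the methods' t-test and 1259 at a fold of 1.5, and 445 to 1091 when 1 array was left out. The 6 probes past adjusted p in that contrast became 964 with spike-in scaling, 20 with normexp, 8 with quantile normalization or the authors' values, and 14 without either vehicle array. They became 0 in limma with no filter (1532 unadjusted), with probes above background under vehicle or TP-16 (391) or on all 8 arrays (258), with the replicate block (638), with only the 2 groups (526) and without any one TP-16 or anti-PD-1 array (445 to 1091), and 0 with the methods' t-test (197). Without either combination array 4 remained, 0 of them higher (449 unadjusted in limma). The lone array of a group was then assumed to vary like the other groups.

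With the replicate number as a block, 2104 probes were called unadjusted, 22.9% of them higher, 3 after adjustment, and 638 against anti-PD-1. The numbers pair nothing in the labels, and deviations of same-numbered arrays correlated at 0.25 (vehicle with TP-16), -0.11 (with anti-PD-1) and 0.29 (with combination). Of 145 named genes, 140 kept their call or lack of one under the block, while Rab5c was not among the 3 adjusted calls, all lower, and the cytotoxic list went from 6 higher calls to 1.

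Of 3159 values of the 145 named genes over these alternatives, 2720 kept direction and side of the threshold, 322 lost a call, 47 gained one, 69 moved and 1 reversed. Of the 1972 calls, 1093 were also called after quantile normalization and 788 with spike-in scaling. Dim probes limit all counts, since signal near background is only bounded. A slide block was not run because all arrays lie on 1 slide.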
